A study of Mus musculus with 84 samples.

Results

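The sensory neuropeptide genes described here are 10 genes of the 50686 in the count table: Tac1, Calca, Calcb, Adcyap1, Nmb, Gal, Npy, Sst, Vip and Cartpt. They were chosen by name and not by a cut on their levels, but with earlier results of these data known. All 10 were found in the table. Their levels were read in 72 of 84 single neurons, those with at least 5000000 counts, as counts scaled to a total of 1000000 in each neuron (CPM). The neurons came from the vagal sensory ganglia of C57BL/6 mice, and each had been labelled by the lipophilic dye DiI (2%) carried back along its axon from the airways. The mRNA of each neuron was amplified and sequenced separately in 76-base reads, and the labels put all neurons in 1 group. They name neither the animal behind a neuron nor its age or sex. Neurons are therefore not replicates of a condition, and classes of neurons are described by counts, ranges and medians with no test.

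Neuropeptides are made as longer precursors, cut by prohormone convertases in the secretory pathway, stored in large dense-core vesicles and released from nerve endings in the tissue as well as in the brainstem. Released in the airways, tachykinins and calcitonin gene-related peptide (CGRP) are best known for contracting smooth muscle, widening vessels and making them leak, the response called neurogenic inflammation. Tac1 encodes substance P and neurokinin A. Calca encodes α-CGRP and, by another choice of exons, calcitonin, and Calcb encodes β-CGRP. Counts per gene cannot part the calcitonin and CGRP transcripts of Calca. Adcyap1 encodes the peptide PACAP, Nmb neuromedin B, Gal galanin, Npy neuropeptide Y, Sst somatostatin, Vip vasoactive intestinal peptide and Cartpt the CART peptides.

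The 72 neurons had 6732279 to 20668832 counts each, with a median of 12860292.5. They had 841 to 8870 genes at 10 CPM or more, and 46 of them had at least 4000. All 10 pan-neuronal genes examined reached 10 CPM in 44 neurons, and the lowest number in any neuron was 5. Satellite glia transcripts were also present: 7 of 7 marker genes were detected, and Apoe, a lipid carrier of glia, reached 10 CPM in 55 of 72 neurons. Neuron identifiers run in 3 blocks separated by gaps of over 30 numbers, with 16, 11 and 45 of the 72 neurons. The labels do not call the blocks batches, so values within blocks are given where they differ.

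Calca and Calcb are neighbouring paralogs on mouse chromosome 7, and the 2 sequences below show where a read could be given to the wrong one of them. They are the coding stretches of read length that are most alike, in the part that holds the beginning of mature CGRP. They read 5′ to 3′ along the transcript, and capitals mark the bases that differ.
Calca: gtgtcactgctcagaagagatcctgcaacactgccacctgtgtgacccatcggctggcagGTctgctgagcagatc
Calcb: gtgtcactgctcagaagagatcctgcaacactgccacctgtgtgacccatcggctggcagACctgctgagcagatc
Counted from 1 at the 5′ end, with the Calca base first, the differences are G61A and T62C, so 74 of 76 bases are the same and the first 60 have no difference. In GRCm38 with the GENCODE M21 annotation, the Calca stretch lies in exons of Calca-201 on the minus strand, 75 bases at chr7:114632525-114632599 and 1 base at 114634468. The Calcb stretch lies in exons of Calcb-201 on the plus strand, 1 base at 114720214 and 75 bases at chr7:114721975-114722049. Of the 312 coding windows of 76 bases in Calca-201, 11 came within 2 bases of a Calcb window, and no 76-base word was shared exactly between the genes. The same search found no exact 76-base word shared with another gene for Tac1, Adcyap1, Gal, Npy, Sst, Vip or Cartpt. Nmb was the exception: 90 of its 789 words (11.4%) also occur in Sec11a, a signal peptidase subunit gene on the same strand whose exons cover 163 of the 793 exonic bases of Nmb.

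Levels of these genes did not spread evenly but ran from a few reads to a share of a percent or more of all reads. Of the 720 values (10 genes in 72 neurons), 245 were 0 counts and 242 were trace, meaning at least 1 count but under 10 CPM. Another 103 lay between 10 and 100 CPM, 99 between 100 and 1000 CPM, and 31 at 1000 CPM or more. High level is used below for 100 CPM or more (673 counts at the lowest total) and detected for 10 CPM or more. CPM is not corrected for transcript length, so levels are set between genes only per kilobase of annotated exon. Trace reads were common: a neuron had at least 1 count of 3 to 10 of the genes, with a median of 7. What part of the trace reads comes from the neuron itself was not tested.

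**Figure D1:**
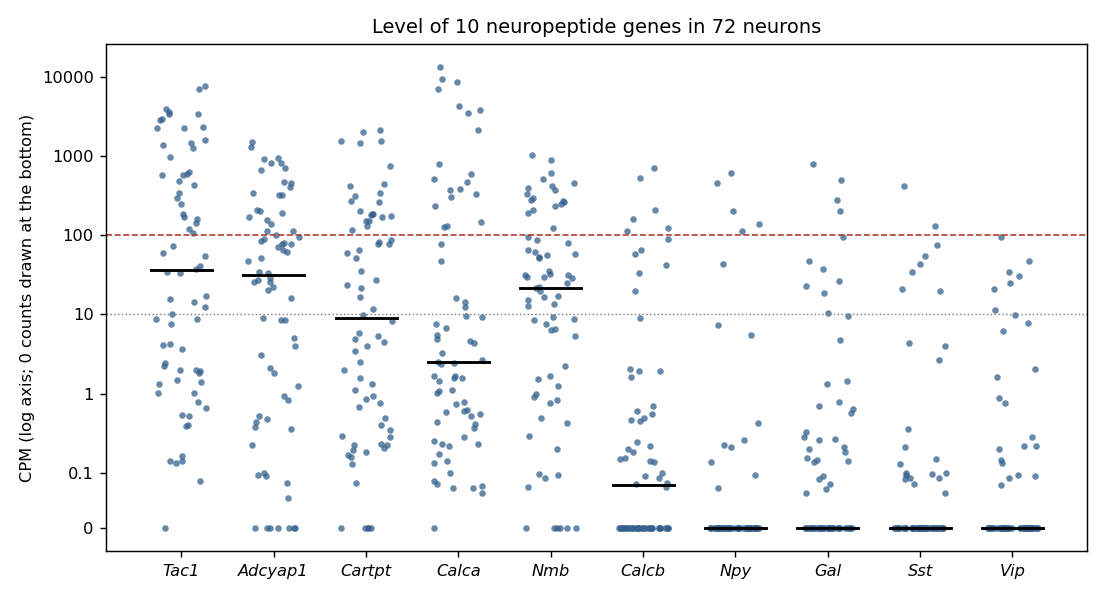
Level of each of the 10 genes (x axis) in each of 72 neurons (points) as CPM on a log axis, with 0 counts drawn at the bottom. Black bars are medians, the dotted line is 10 CPM and the dashed line 100 CPM. Tac1, Adcyap1, Cartpt, Calca and Nmb had from 18 to 31 neurons above the dashed line, and Vip had none.

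Tac1 was the member most often at high level. It had 0 counts in 1 neuron, trace in 28, 10 to 100 CPM in 12, 100 to 1000 CPM in 16 and 1000 CPM or more in 15. Thus 31 of 72 neurons (43.1%; exact 95% interval 31.4 to 55.3%) had it at high level, and 43 had it detected. Its lowest, median and highest levels were 0, 36.3 and 7772.5 CPM, the last in neuron AM003 from 134147 counts. The neurons with Tac1 at high level were not a uniform set, since they ran from 107 CPM upwards with a median of 980 CPM. All of these intervals cover counting error over neurons only, and reads made by amplification without molecular identifiers are not independent molecules.

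Some sensory genes were detected in unlike shares of the neurons with Tac1 at high level and the rest, and others in like shares. Piezo2, the mechanically gated channel, was detected in 20 of 31 neurons with Tac1 at high level and in 14 of 41 others. Npy2r, a receptor for neuropeptide Y, was detected in 17 of 31 against 9 of 41. Cckar, a receptor for cholecystokinin, had 19 of 31 against 11 of 41. Slc5a7, the choline transporter, showed the opposite order, with 2 of 31 against 16 of 41. Trpv1, the capsaicin receptor, was detected in 7 of 31 against 12 of 41, and Trpa1 in 6 of 31 against 7 of 41. Among the 24 neurons without high Tac1 that had at least 4000 genes, Piezo2 was detected in 8, Npy2r in 9, Cckar in 9 and Slc5a7 in 14. The 31 were not filtered in this way, and 9 of them had under 4000 genes, so these counts are not a like comparison.

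Calca was at high level in fewer neurons than Tac1 but had a higher peak per kilobase. It had 0 counts in 1 neuron and was at trace in 46, between 10 and 100 CPM in 5, between 100 and 1000 CPM in 12, and at 1000 CPM or more in 8. High level was therefore seen in 20 of 72 neurons (27.8%; exact 95% interval 17.9 to 39.6%). The lowest, median and highest levels were 0, 2.50 and 13479.6 CPM. In the highest neuron, AM013, 245852 counts or 1.35% of all counts were Calca. Few neurons lay between trace and high level: sorted by level, Calca went from 16.2 straight to 47.7 CPM, with 22 neurons above that step. Per kilobase of annotated exon, the highest single level was 8004 CPM for Calca, 2287 for Tac1, 1687 for Cartpt, 1318 for Nmb, 1088 for Npy and 1002 for Gal.

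Some receptor and channel genes were detected in unlike shares of the neurons with Calca at high level and the rest, and others in like shares. P2ry1, a receptor for ADP, was detected in 7 of 20 against 36 of 52 other neurons. Htr3a, the subunit of the serotonin-gated channel, was detected in 14 of 20 against 20 of 52, and Trpv1 in 9 of 20 against 10 of 52. Scn10a, the sodium channel Nav1.8, had 12 of 20 against 32 of 52, Npy2r 7 of 20 against 19 of 52, and P2rx2, a subunit of the ATP-gated channel, 10 of 20 against 29 of 52. Among the 34 other neurons with at least 4000 genes, P2ry1 was detected in 29, Htr3a in 12 and Trpv1 in 8. The 20 were not filtered in this way, and 8 of them had under 4000 genes, so these counts are not a like comparison.

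Calcb was rarer than Calca and mostly lay beside it. It had 0 counts in 35 neurons, was at trace in 25 and was detected in 12, of which 6 reached high level (8.33%; exact 95% interval 3.12 to 17.3%). Those 6 levels were 709 CPM in AM295, 532 in AM013, 211 in AM284, 161 in AM296, 124 in AM228 and 114 in AM080. In 5 of the 6, Calca was at high level too. AM228 was the exception, with 1385 counts of Calcb and 105 of Calca (9.43 CPM). In AM271 Calcb at 19.7 CPM likewise exceeded Calca at 7.63 CPM.

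Among the 25 neurons with Calca detected, Calcb came to between 0 and 23.6% of Calca's CPM. AM072 had 6549 counts of Calca and 1 of Calcb, AM078 had 4769 and 0, and AM304 had 40859 and 20. At the other end AM283 had 4849 and 1146. The ratio thus varied between neurons with like counts of Calca, and where Calcb was lowest its counts were 0.0153% or less of those of Calca. Across the 72 neurons, Pearson's r of log2(CPM + 10) between the genes was 0.72, given as a description of neurons that share an unknown number of animals.

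**Figure D2:**
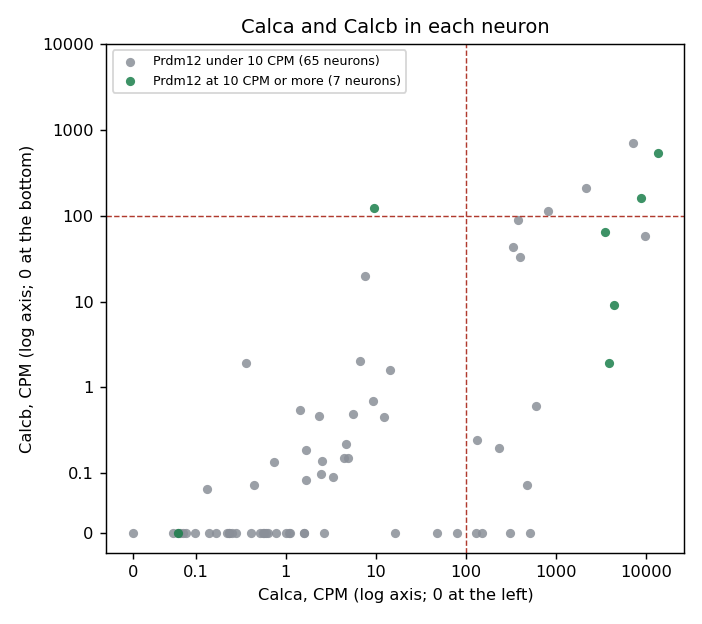
Calca (x axis) against Calcb (y axis) in each of 72 neurons, both as CPM on log axes with 0 counts drawn at the edge. Green points are the 7 neurons with Prdm12 at 10 CPM or more, grey points the other 65, and dashed lines mark 100 CPM. Calcb was at high level in 5 of the 20 neurons right of the vertical line and in 1 neuron left of it.

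Adcyap1, Nmb and Cartpt were broadly detected and at high level in about as many neurons as Calca. Adcyap1 was detected in 43 neurons and at high level in 22 (30.6%; exact 95% interval 20.2 to 42.5%), with a lowest, median and highest level of 0, 31.1 and 1500.5 CPM. Nmb was detected in 43 and at high level in 18 (25%; 15.5 to 36.6%), with levels of 0, 21.9 and 1045 CPM. Cartpt was detected in 35 and at high level in 22 (30.6%; 20.2 to 42.5%), with levels of 0, 8.97 and 2154 CPM. At 1000 CPM or more there were 5 neurons for Cartpt, 2 for Adcyap1 and 1 for Nmb. Between 10 and 100 CPM lay 21 neurons for Adcyap1, 25 for Nmb and 13 for Cartpt. The number of genes seen in a neuron moved with both: of the 26 neurons under 4000 genes, 5 had Adcyap1 and 3 had Nmb at high level, against 17 and 15 of the 46 others. For Cartpt the same counts were 7 of 26 and 15 of 46. The part of gene number in these differences was not tested.

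Cartpt at high level lay beside Htr3a, detected in 16 of 22 such neurons against 18 of 50 others. Piezo2 had the opposite order, with 6 of 22 against 28 of 50. For Nmb, Prrxl1, a homeobox gene of sensory neurons, was detected in 14 of 18 neurons with high level and 15 of 54 others. Scn10a was detected in 17 of 18 against 27 of 54. Of the 18 neurons, 15 had at least 4000 genes. Among the 31 others with at least 4000 genes, Prrxl1 was detected in 10 and Scn10a in 22.

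Galanin, neuropeptide Y, somatostatin and vasoactive intestinal peptide genes were silent or near silent in most neurons and, apart from Vip, high in a few. Gal was at 0 counts in 37 neurons and at trace in 24. It reached high level in 4 (5.56%; exact 95% interval 1.53 to 13.6%), at 789 CPM in AM278, 500.2 in AM258, 277 in AM083 and 201 in AM216. Npy was at 0 counts in 57 neurons and reached high level in 5 (6.94%; 2.29 to 15.5%), at 616 CPM in AM300, 458 in AM297, 205 in AM258, 140.3 in AM223 and 113 in AM246. Below these came 1 neuron at 43.0 CPM, and the next was at 7.43 CPM. All 5 neurons with Npy at high level, and the sixth detected, were in identifier block 3, which holds 45 neurons. In the 27 neurons of the other blocks the highest Npy level was 7.43 CPM.

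Sst was at 0 counts in 48 neurons and at high level in 2, at 418 CPM in AM065 and 130 in AM004. Both also had Nmb at high level. Vip was at 0 counts in 48 neurons and never at high level. For 0 of 72 neurons the limit that 3 neurons would set is 4.17%, and the exact 95% interval, as given for the other members, runs up to 4.99%. It was detected in 7 neurons, between 11.3 and 95.5 CPM, the highest in AM076. These 7 neurons all had P2rx2, Hoxb5 and Ntrk2 detected, against 32, 46 and 52 of the 65 others. Prrxl1 was detected in 5 of the 7 against 24 of 65, Runx1 in 6 against 44, and Phox2a in 1 against 4. Htr3a was detected in 5 of the 7, with a median of 891 CPM, against 29 of 65.

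Among the 5 members at high level in at least 10% of neurons (Tac1, Calca, Adcyap1, Nmb and Cartpt), 2 were under 10 CPM in at least 50% of neurons, namely Calca and Cartpt. Of the 3896 genes at high level in at least 10% of neurons, 4.65% had that pattern. Among the 9 members with a neuron at high level, 5 had a neuron at 1000 CPM or more, against 24.6% of the 9582 genes of the whole table with a neuron at high level. Trace levels were far below the top: the median trace level was 0.00509 to 0.228% of the highest level, depending on the gene.

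Most neurons had a neuropeptide gene at high level, and most of those had more than 1. At least 1 of the 10 was at high level in 58 of 72 neurons (80.6%; exact 95% interval 69.5 to 88.9%), and 2 or more in 39 (54.2%; 42.0 to 66.0%). No member was at high level in 14 neurons, 1 in 19, 2 in 20, 3 in 11, 4 in 3, 5 in 4 and 6 in 1. The single neuron with 6 was AM296, with Calca at 8796 CPM, Tac1 at 7059, Cartpt at 1553, Nmb at 624, Adcyap1 at 325 and Calcb at 161. Together its 10 genes made 18529 CPM.

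In the 58 neurons with a member at high level, the leading gene per kilobase made 33.4 to 99.9% of the CPM per kilobase summed over the 10, with a median of 70.3%. That gene was Tac1 in 16 neurons, Calca in 14, Cartpt in 11, Nmb in 6, Gal in 4, Npy in 4, Adcyap1 in 2 and Sst in 1. The order rests on the length used, the exons of all annotated transcripts pooled, from 566 bases for Npy to 3777 for Adcyap1. In AM300, for example, Npy led per kilobase although Adcyap1 had more CPM (1500.5 against 615.6). Tac1 or Calca was at high level in 41 neurons, which leaves 17 whose high members were others. Levels of 1000 CPM or more for 2 or more members were rare, with 4 neurons, and Tac1 and Calca were both at that level in 2, AM295 and AM296.

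The 14 neurons with no member at high level had fewer genes. Their number of genes at 10 CPM ran from 841 to 8359 with a median of 3266, against 1102 to 8870 with a median of 6187 in the other 58. Of the 46 neurons with at least 4000 genes 41 had a member at high level (89.1%), and of the 26 with fewer genes 17 had one (65.4%). Summed satellite glia markers had a median of 3103 CPM (range 95.8 to 56626) in the 14 and 1812 CPM (30.7 to 16045) in the 58, and summed pan-neuronal genes had medians of 21552 and 18311 CPM. No member even reached 10 CPM in 5 neurons, all of them in identifier block 3. The part of gene number and of glial RNA was not tested.

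**Figure D3:**
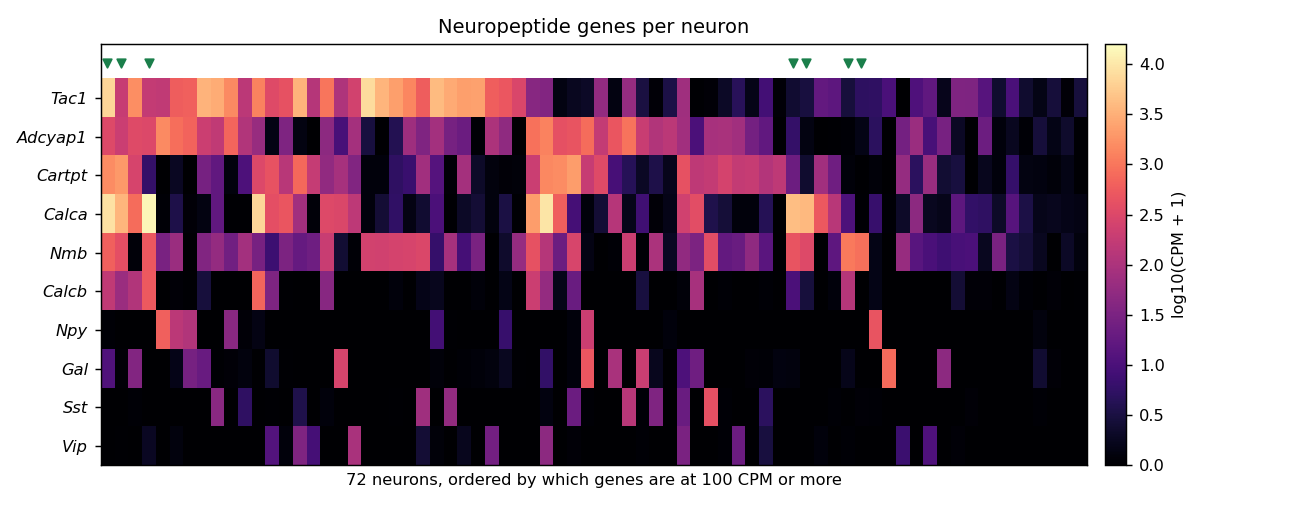
Level of the 10 genes (rows) in 72 neurons (columns) as log10(CPM + 1), with neurons ordered by which genes are at 100 CPM or more. Green triangles mark the 7 neurons with Prdm12 at 10 CPM or more. The left part holds the 31 neurons with Tac1 at high level, and the right end the 14 with no member at high level.

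Combinations were many. The 58 neurons fell into 33 combinations of members at high level, of which 22 occurred in 1 neuron each. The commonest were Tac1 alone in 7 neurons, Cartpt alone in 5, Tac1 with Nmb in 5, Tac1 with Adcyap1 in 4, and Tac1 with Adcyap1 and Npy in 3. Calca alone occurred in 2. The other 11 combinations occurred in at least 2 neurons, so exact sets were repeated by some neurons and not by others.

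Pairs of members overlapped to differing extents. Tac1 and Calca were both at high level in 10 neurons, 32.3% of the neurons with Tac1 and 50% of those with Calca, and over all neurons 43.1% had Tac1 and 27.8% Calca. Calca and Cartpt shared 11, 55% of those with Calca and 50% of those with Cartpt. Tac1 and Adcyap1 shared 11 neurons, 35.5% of those with Tac1 and 50% of those with Adcyap1. Tac1 and Cartpt shared 8, 25.8% and 36.4%. Of the 5 neurons with Npy at high level 4 also had Adcyap1 at high level. Pearson's r of log2(CPM + 10) over the 72 neurons was 0.50 for Calca with Cartpt and 0.09 for Tac1 with Calca.

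Identifier blocks differed in their shares. Tac1 was at high level in 7 of 16 neurons of block 1, 9 of 11 of block 2 and 15 of 45 of block 3. Calca was at high level in 6 of 16, 6 of 11 and 8 of 45. Nmb stood at 7 of 16, 2 of 11 and 9 of 45, and Cartpt at 7 of 16, 3 of 11 and 12 of 45. Adcyap1 varied least of these, with 4 of 16, 3 of 11 and 15 of 45. Whether the blocks are collections from different animals or days cannot be told from the labels.

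Neurons with Prdm12, a transcriptional regulator known from pain-sensing neurons of neural crest origin, differed from the other neurons in the share with Nmb and Calca at high level more than in that of the other members. Prdm12 was at 10 CPM or more in 7 neurons (22.04 to 87.01 CPM). Nmb was at high level in all 7, at 330, 403, 460, 520, 624, 887 and 1045 CPM, and in 11 of the 65 others. The 65 ran from 0 to 427 CPM with a median of 16.7, and 2 of them reached the lowest level of the 7. Within block 1 the counts were 2 of 2 against 5 of 14, and within block 3 they were 5 of 5 against 4 of 40. The result depends on the cut. In block 2, AM086 lay just under it, with Prdm12 at 9.13, Nmb at 7.62 and Calca at 1.01 CPM. The next highest in Prdm12, AM072 at 3.41 and AM076 at 2.40 CPM, had Nmb at 31.5 and 0.0856 CPM. Sec11a, which overlaps Nmb, had medians of 40.1 CPM in the 7 and 19.96 CPM in the 65. Its range of 0.0952 to 88.9 CPM in the 7 lay within that of 0 to 335 CPM in the 65.

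Calca was at high level in 5 of the 7 Prdm12 neurons, each time at 1000 CPM or more: 13480 CPM in AM013, 8796 in AM296, 4325 in AM011, 3888 in AM304 and 3507 in AM237. The remaining AM228 and AM303 had 9.43 and 0.0642 CPM. Of the 65 other neurons 15 had Calca at high level, and 3 of these at 1000 CPM or more. Calcb was at high level in 3 of 7 against 3 of 65. The 7 neurons were thus high in Nmb throughout but split into 5 with very high and 2 with trace Calca.

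Tac1 was at high level in 3 of 7 Prdm12 neurons and 28 of 65 others, Adcyap1 in 3 of 7 and 19 of 65, and Cartpt in 2 of 7 and 20 of 65. Gal, Npy, Sst and Vip were at high level in none of the 7. Nmb was 83.1 percentage points and Calca 48.4 points higher in share at high level. Of the 9 members with a neuron at high level, 2 were at least 40 points higher in Prdm12 neurons, against 5.28% of the 9582 genes with such a neuron, and none was 40 points lower, against 0.428%. In the share of neurons at 10 CPM or more, 3 of 10 members passed, Calcb at 44.8, Nmb at 44.6 and Calca at 40.7 points, and none was 40 points lower. Of the 16068 genes detected in at least 1 neuron, 13.3% and 0.361% did so. Prdm12 neurons had more genes, with a median of 8091 (4722 to 8317) against 4870 in the others. Set against the 39 others with at least 4000 genes, 3 of 9 members passed, Calcb being the third at 40.3 points, where 2.99% of the 7503 genes tested were that much higher and 1.39% that much lower. Summed satellite glia markers had medians of 1852 CPM in the 7 and 1966.5 CPM in the 65.

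**Figure D4:**
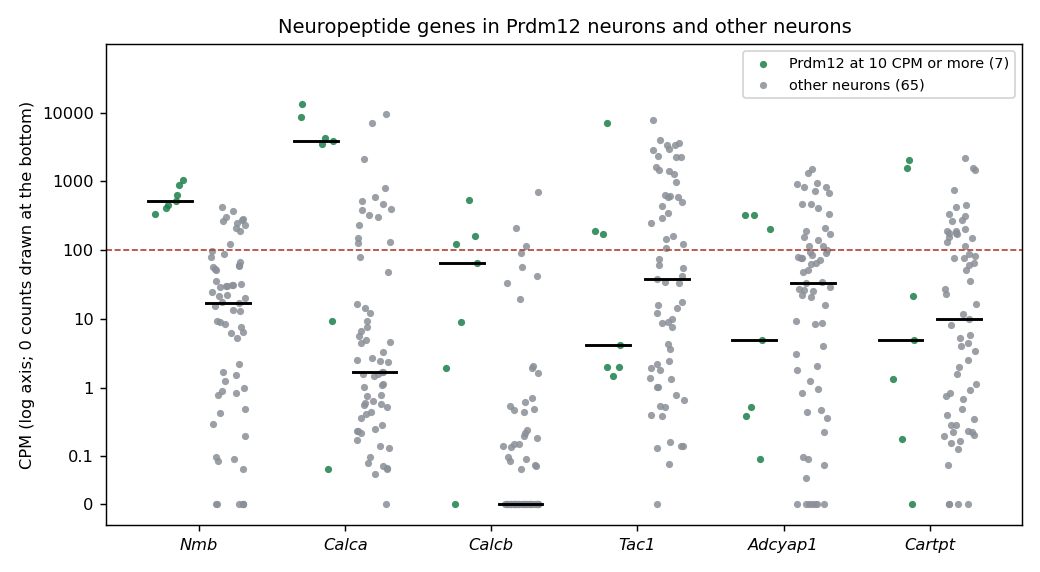
Level of 6 members in the 7 neurons with Prdm12 at 10 CPM or more (green) and the 65 others (grey), as CPM on a log axis with 0 counts at the bottom. Bars are medians and the dashed line is 100 CPM. All 7 green points of Nmb lie above the line, from 330 to 1045 CPM, and Calca has 5 of 7 above it.

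Calca and Nmb at high level also occurred outside the Prdm12 neurons, beside other genes. The 15 neurons with Calca at high level but without Prdm12 had a median of 391 CPM, against 4325 CPM in the 5 with it. The 15 also had fewer genes at 10 CPM, with a median of 3768 against 8123 in the 5. The part of gene number in the differences between these classes was not tested. Hoxb5 was detected in 12 of the 15 and 1 of the 5, and P2rx2 in 10 of the 15 and 0 of the 5. Ntrk2, of the same marker list, was detected in 14 of the 15 and 3 of the 5. Prrxl1 was detected in 5 of the 15 and all 5, and Phox2a in only 1 of the 20 neurons with Calca at high level. Htr3a was detected in all 5 and in 9 of 15. The 11 neurons with Nmb at high level but without Prdm12 all had Hoxb5 detected, and 7 had P2rx2. Asic3, an acid-sensing channel, and Htr1b, a serotonin receptor, were detected in none of these 11 and in all 7 Prdm12 neurons. Prrxl1 was detected in 7 of the 11 and in all 7 Prdm12 neurons. Of the 28 neurons with Tac1 at high level but without Prdm12, 27 had Hoxb5, 27 had Ntrk2 and 17 had P2rx2 detected. In the 3 with Prdm12, Ntrk2 was detected in 3, and Hoxb5 and P2rx2 in 0.

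Npy and Gal at high level were set beside injury genes, since both peptides are known to rise in sensory neurons whose axon was cut. The 8 injury genes examined were Atf3, Sox11, Jun, Sprr1a, Ecel1, Gadd45a, Gap43 and Stmn4, and this comparison was chosen after the values were seen. Sprr1a was detected in 5 of 5 neurons with Npy at high level and 12 of 67 others, Ecel1 in 4 of 5 and 4 of 67, and Stmn4 in 5 of 5 and 37 of 67. These 3 of 8 genes were at least 40 points higher, against 0.79% of all genes tested, and none was 40 points lower, against 1.14%. Since the comparison was chosen with the values known, these shares describe the neurons and are no test. They also mix blocks, as no share of all genes was computed within block 3. Sox11, a transcription factor of axon regrowth, had a median of 967 CPM in the 5 and 48.9 CPM in the 67, and within block 3 its median in the 40 others was 129 CPM. Ecel1 was detected in 4 of those 40. The pattern was not confined to Npy. Of the 22 neurons with Adcyap1 at high level, which include 4 of these 5, 10 had Sprr1a detected, against 7 of 50 others. Ecel1 stood at 6 of 22 against 2 of 50, and Stmn4 at 17 against 25. The summed level of the 8 injury genes had medians of 3425.5 CPM in the 22 and 2126 CPM in the 50. Whether injury raised any of these peptide genes was not tested.

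The summed level of the 8 injury genes was 3466 to 9446 CPM in the 5 neurons with Npy at high level, with a median of 6301, and had a median of 2177 CPM in the 67 others. Ranges overlapped, as 15 of the 67 reached 3466 CPM. Within block 3, the only block with such neurons, the 40 others had a median of 2398 CPM, and 12 of them had Sprr1a detected. In the 4 neurons with Gal at high level the sum was 495 CPM in AM083, 5769.5 in AM258, 9972 in AM216 and 16616 in AM278. AM083 thus lay far under the other 3. Autonomic neurons also make neuropeptide Y and galanin. Of 9 autonomic markers, Slc5a7 was detected in 1 of the 5 neurons with Npy at high level and 2 of the 4 with Gal, Slc18a2 in 2 of 5 and 1 of 4, and Th in 1 of 5 and 1 of 4. Dbh, Slc6a2, Chat and Hand2 were at 0 counts in all of these neurons, but they were detected in none of the 72. The sum of the 9 ran from 0 to 107 CPM in the 5 neurons with Npy at high level and from 0 to 2990 CPM in the 67 others, and 3 of the 9 were detected in the 5.

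**Figure D5:**
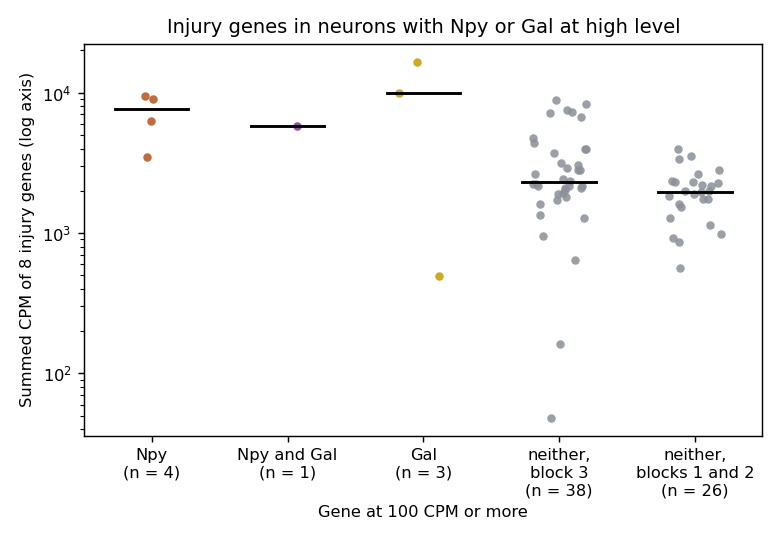
Summed CPM of 8 injury genes (log axis) in neurons with Npy, Gal or both at 100 CPM or more, and in the neurons with neither, split into identifier block 3 and blocks 1 and 2. Points are neurons and bars medians. The 5 neurons with Npy lie between 3466 and 9446 CPM, and the medians of neurons with neither are 2305 CPM in block 3 and 1974 CPM in blocks 1 and 2.

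Genes of the machinery that makes and stores peptides were detected widely, though not all of them in neurons without a member at high level. All 13 listed processing and granin genes were detected in at least 1 neuron, as were 16068 of the 50686 genes of the table. Of the 13, 11 were detected in at least 50% of neurons. In the 58 neurons with a member at high level 11 were detected in over 50%, and in the 14 without one 7 were. The share of all genes at these cuts was not computed. Whether 11 against 7 differs from what the lower gene number of the 14 would give was not tested. Cpe, the carboxypeptidase that trims peptide ends, was detected in 68 neurons with a median of 1060.5 CPM. Scg3 was detected in 66, the vesicle priming gene Cadps in 64, the convertase gene Pcsk2 in 56 and Pcsk1 in 45. Pam, whose enzyme adds the terminal amide that substance P, CGRP and neuropeptide Y carry, was detected in 46 of 58 neurons with a member at high level and 3 of the 14 without. For Cpe the same counts were 55 of 58 and 13 of 14. Pcsk1 stood at 40 of 58 and 5 of 14, and the 14 had fewer genes, as given above.

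No receptor gene for the member peptides was detected in most of the neurons. Of 24 receptor genes found in the table, 12 were detected in at least 1 neuron. Over the whole table that held for 16068 of 50686 genes. Npy2r was detected in 26 neurons, with a highest level of 261 CPM. Gpr160, reported as a receptor for CART peptides, was detected in 19 and Tacr3, the neurokinin B receptor, in 13. Tacr1, the substance P receptor, Adcyap1r1, the PACAP receptor, and Nmbr, the neuromedin B receptor, were detected in none, with highest levels of 4.22, 0.938 and 0.214 CPM. Sstr2 was detected in 4 neurons, Calcrl in 3 and Npy1r in 3, the last at 421 CPM in AM021.

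Outside the lists, the genes whose levels ran most like those of a member over the 72 neurons were looked for among 10370 genes detected in at least 8 neurons. The r values are of log2(CPM + 10), and the neurons share unknown animals and differ in gene number. For Tac1 they were Gpc5 (r = 0.62), Tmem233 (0.55) and Lypd6 (0.54). Gpc5, a glypican, was detected in 20 of 31 neurons with Tac1 at high level and 6 of 41 others. For Calca they were Calcb itself (0.72), Ly75 (0.61) and the potassium channel gene Kcnq5 (0.60), and Ly75 was detected in 8 of 20 and 0 of 52. For Nmb they were Dok4 (0.72), Cgnl1 (0.71) and Adam11 (0.67). Over the 46 neurons with at least 4000 genes these values were 0.72, 0.68 and 0.66.

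For Cartpt the leading genes were Fam89a (0.60), the thrombin receptor gene F2r (0.55) and Ldb2 (0.53), and for Gal they were Kcnmb4 (0.63), Rspo1 (0.56) and Hrk (0.53), where Kcnmb4 fell to 0.39 over the 46 neurons with at least 4000 genes. For Adcyap1 they were Gpr137b (0.59), Hars (0.54) and Abca1 (0.51), and Hars fell to 0.30 over the 46 neurons. For Sst they were Ranbp3, Pygl and Ephx4, all at 0.48, and over the 46 neurons they stood at 0.28, 0.54 and 0.38. For Calcb they were Calca (0.72), Taf6l (0.53) and Kcnq5 (0.51), and Taf6l fell to 0.27 over the 46 neurons.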

How the data were processed

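Single traced vagal neurons of C57BL/6 mice were profiled by sequencing of amplified mRNA. The authors deposited raw read counts, whole numbers per Ensembl gene and neuron, with no normalization. Reads were assigned with featureCounts, per the submitters' processing notes. Neither its version nor the aligner, genome build, annotation or strand setting is given in the sources used here. Symbols came from GENCODE M21, which matched 50376 of 50686 identifiers and whose coordinates (GRCm38) need not be those the authors used.

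CPM values were computed from each neuron's total. The 12 neurons under 5000000 counts (576966 to 3892206) were left out. Levels were classed as 0, trace (under 10 CPM), 10 to 100, 100 to 1000 and 1000 CPM or more. A count of 0 neurons was given the upper limit that 3 would set. Shares have exact (Clopper-Pearson) 95% intervals. No test was run, since the labels give 1 group and no animals. Genes were compared between Prdm12 neurons and others by a difference of 40 percentage points.

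The members, gene lists and comparisons were chosen with earlier results of these data known. Text names all 10 members, of each list the 4 genes detected in most neurons and the 2 with the highest single level, or any gene of a list of 13 or fewer, and 3 correlated genes per member detected in at least 8 neurons. Calcrl, Tacr1, Adcyap1r1 and Nmbr were named outside that rule, for the member peptides they bind. Leukocyte, endothelial, fibroblast, erythrocyte and Schwann cell marker lists were read too. A result that rests on a withheld item is not reported here. Alternatives were other levels for high, other neuron filters, thinning to equal depth (seed 1), TMM factors from edgeR 4.0.16 in R 4.3.3, totals without mitochondrial genes and leaving out identifier blocks. Python 3.11.15, numpy 2.4.6, pandas 2.3.3, scipy 1.17.1 and matplotlib 3.10.9 were used. The share step at 10 CPM and the correlation step were run on simulated counts, in which all neurons had the same profile apart from planted differences. That simulation did not cover shares at 100 CPM or classes that differ in gene number.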

Additional observations from a re-analysis of the deposited data

Results flagged for a closer look

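Signal of 4 members at high level appeared in the 12 neurons under 5000000 counts, which were left out of the main values and entered only the alternative with all 84 neurons. Tac1 was at high level in 5 of them, up to 14447 CPM in AM224 from 52603 counts, above any of the 72 deeper neurons. Cartpt was at high level in 3, up to 2752 CPM in AM294. AM290 had Calca at 326 CPM from 581 counts and Nmb at 103 CPM from 183 counts. Gal, Npy, Sst and Vip were under 10 CPM in all 12.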

How the results depend on the processing

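No paired analysis was possible because the labels give 1 group with no pairing. The share of neurons with at least 1 member at high level was 68.1% at 200 CPM, 34.7% at 1000 CPM, 89.1% with at least 4000 genes and 96.3% without identifier block 3. The share with 2 or more was 70.8% at 50 CPM, 41.7% at 200 CPM, 5.56% at 1000 CPM and 70.4% without block 3. Tac1 at high level was 20.8% at 1000 CPM and 59.3% without block 3, and Calca was 11.1% and 44.4%. The other alternatives of these shares stayed inside the exact intervals. Members 40 points higher in Prdm12 neurons numbered 2 and became 0 when 1 count of Prdm12 sufficed (22 neurons), 1 with TMM scaling (8 neurons) and 1 without block 1, where Calca was at 39.1 and 38.4 points. With 1 count of Prdm12 sufficing, Nmb was 16.4 and Calca 32 points higher. Nmb passed in the other alternatives. Of 96 alternatives for the other 8 members, 11 left the interval, of which 10 changed the level called high and 1 left out block 3. The causes were not tested. At this depth 3 counts make 0.145 to 0.446 CPM, so trace levels near that rest on few reads.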

Other observations

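Other neuropeptide precursor genes were also high in some neurons. Nts, the neurotensin gene, was detected in 17 of 72 neurons, at high level in 13 and at 1000 CPM or more in 8, and 16 of the 17 were in identifier block 3. Its highest level was 17473 CPM in AM246. Of the 5 neurons with Npy at high level, 4 had Nts at 506 to 17473 CPM, and AM297 had it at 0.0975 CPM. Vgf, a secreted precursor of sensory neurons, was detected in 47 neurons with a median of 51.3 CPM, Grp in 13, Agrp in 7 and Pthlh in 7, the last at 1182 CPM in AM230. Penk, the enkephalin gene, was detected in AM249 alone, at 2517 CPM. Of the 23 listed precursors, 14 were detected in at least 1 neuron, where 16068 of the 50686 genes of the table were.

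Marker lists of other cells gave these values: 4 of 5 Schwann cell, 2 of 5 endothelial, 5 of 5 fibroblast, 4 of 5 leukocyte and 4 of 5 erythrocyte genes were detected in at least 1 neuron. Over the whole table that held for 16068 of 50686 genes.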
